A study of Mus musculus with 17 samples.

Results

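The mRNAs described here are Col1a1, Col1a2, Col3a1 and Sparc, 4 of the 49585 genes listed for each library, chosen by name as mRNAs of fibrillar collagen and bone matrix. They were measured in cell-free RNA (cfRNA), the RNA that circulates in plasma outside cells. Plasma came from wild type C57BL/6J mice, 13 weeks old by their labels, of the MHU-1 spaceflight mission. 6 mice were kept in microgravity on the International Space Station (MG), 6 were kept there on a rotating platform giving artificial 1-G (AG), and 5 were ground controls (GC). Each library was 1 mouse, so the replicates were separate animals. MG against AG compares gravity within flight, AG against GC compares flight at artificial 1-G with the ground, and in MG against GC the effects of gravity and of flight itself cannot be told apart.

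Col1a1 and Col1a2 encode the chains of type I collagen, a heterotrimer of a pair of Col1a1 chains with 1 Col1a2 chain, which is the main protein of bone, tendon, ligament and dermis. Col3a1 encodes the chain of type III collagen, a homotrimer that is mixed with type I collagen in skin, vessel walls and hollow organs. Sparc encodes osteonectin, a secreted glycoprotein that binds collagen and calcium and is abundant in bone, and it is also made by fibroblasts, endothelial cells and megakaryocytes. None of the 4 is made by bone cells alone.

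In GENCODE M21 on GRCm38 (the mm10 build), Col1a1 lies at chr11:94936224-94953042 on the plus strand, Col1a2 at chr6:4504814-4541544 on the plus strand, Col3a1 at chr1:45311538-45349706 on the plus strand, and Sparc at chr11:55394500-55423183 on the minus strand. The longest coding transcript had 51 exons and 5930 bases for Col1a1, 52 exons and 5348 bases for Col1a2, 51 exons and 5564 bases for Col3a1, and 10 exons and 2300 bases for Sparc. A collagen helix is a repeat of glycine followed by any pair of residues, and in fibrillar collagen genes the helix is spread over many exons of 54 bases. Col1a1 had 21 coding exons of exactly 54 bases, Col1a2 24 and Col3a1 24, against 0 in Sparc. The first coding exon of this kind in each collagen gene is printed 5′ to 3′ on the plus strand, with the glycine codons in capitals, because reads of 36 bases must be told apart within this shared repeat. They are exon 8 of Col1a1 (chr11:94939904-94939957), exon 8 of Col1a2 (chr6:4515481-4515534) and exon 6 of Col3a1 (chr1:45325360-45325413).
Col1a1: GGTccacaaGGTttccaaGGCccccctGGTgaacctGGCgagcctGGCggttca
Col1a2: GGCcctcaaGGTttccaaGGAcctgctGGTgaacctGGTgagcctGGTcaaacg
Col3a1: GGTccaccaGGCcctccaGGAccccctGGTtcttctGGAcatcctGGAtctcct
Each of these exons held 6 glycine codons. The Col1a1 and Col1a2 exons were identical at 42 of 54 positions, those of Col1a1 and Col3a1 at 35, and those of Col1a2 and Col3a1 at 31. The exons were taken as the first of their kind and were not matched by place in the helix. These identities therefore do not rank the genes by likeness. Over the whole transcripts, none of the 36-base words of Col1a1, Col1a2 or Sparc occurred in a transcript of another gene on either strand. In Col3a1, 106 of 5529 words (1.917%) were shared, all with Gm47302, a miRNA gene that lies on the same strand inside a Col3a1 exon and that is not analysed here. No such word was shared between any of the 4 mRNAs.

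The libraries were shallow for mRNA. The total count ranged from 115515 to 277682 in AG, from 113746 to 223189 in MG and from 84657 to 195103 in GC, and 4 genes (Lars2, Polr2m, Rn18s-rs5 and Tmem38b) took between 70.6% and 91.7% of a library. Levels are given as CPM, the count of a gene relative to the total count after scaling of each library by the trimmed mean of M-values (TMM), which compares the middle of many genes between libraries. Reads are given as counts of the evidence for a gene and grow with its length, and levels of different genes are compared only per length, first in the deposited RPKM values, which are relative to the length of the gene's exons and to the mapped reads.

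The 4 mRNAs were found in plasma at low counts in nearly every mouse. Over the 17 libraries there were 308 reads of Col1a1, 254 of Col1a2, 145 of Col3a1 and 87 of Sparc. The collagens had at least 1 read in 17 of 17 libraries and Sparc in 16.

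Col1a1 was read in the AG libraries, in order of replicate number, 11, 18, 7, 14, 13 and 33 times, in the MG libraries 8, 15, 8, 59, 24 and 18 times, and in the GC libraries 21, 23, 11, 18 and 7 times. Col1a2 was read 4, 10, 4, 9, 4 and 24 times in AG, 15, 7, 7, 76, 25 and 22 times in MG, and 11, 12, 8, 9 and 7 times in GC. One MG library, replicate 4, held the highest count of both type I collagen mRNAs, and AG replicate 6 was the highest of its group for both.

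Col3a1 was read 2, 5, 2, 6, 4 and 20 times in AG, 6, 3, 3, 35, 5 and 4 times in MG, and 5, 21, 10, 11 and 3 times in GC. The same MG and AG libraries were again the highest of their groups. Sparc was read 5, 1, 3, 8, 1 and 6 times in AG, 4, 2, 9, 15, 6 and 3 times in MG, and 8, 10, 0, 2 and 4 times in GC. Sparc was at 0 in GC replicate 3, where a count of 0 allows up to 3 reads, or 17.7 TMM-normalised CPM, for counting error only.

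The order of the 4 mRNAs per length depended on the length used. In the deposited RPKM values Col1a1 was the highest, and its RPKM was 0.682 ± 0.400 (SD, n = 17 libraries), against 0.363 ± 0.326 for Sparc, 0.268 ± 0.166 for Col1a2 and 0.192 ± 0.133 for Col3a1. Col1a1 had the highest RPKM of the 4 in 15 of 17 libraries, and it was above Col3a1 in 17, above Col1a2 in 16 and above Sparc in 16. The lengths behind these values were not those of the longest coding transcripts. The RPKM of Col1a2 divides by 1.85 times the length used for Col1a1, where all annotated exons of the genes span 12426 and 6563 bases, and the longest coding transcripts 5348 and 5930 bases. Per kilobase of the longest coding transcript, a choice made after the values were seen, the mean was 3.06 ± 2.14 reads for Col1a1, 2.79 ± 3.20 for Col1a2, 2.23 ± 1.70 for Sparc and 1.53 ± 1.60 for Col3a1 (SD, n = 17 libraries). On that scale Col1a1 was above Col1a2 in 12 of 17 libraries and above Sparc in 10, and it was the highest of the 4 in 7. Col1a1 was above Col3a1 in 17 of 17 libraries, and Col3a1 the lowest in 11, on both scales. The neighbours lower in the RPKM order changed places between mice. Col1a2 was above Sparc in 10 of 17 libraries and above Col3a1 in 12.

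**Figure D1:**
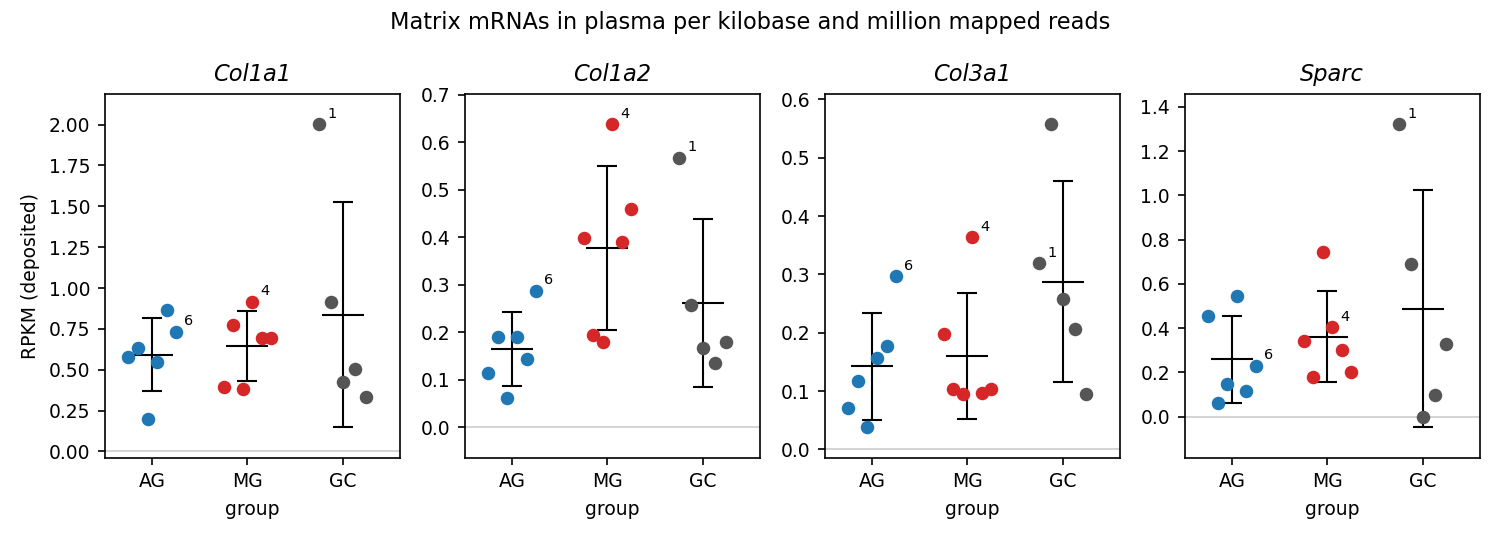
Deposited RPKM of each mRNA (y axis, a scale per panel) in the AG, MG and GC libraries (x axis), with 1 point per mouse, the mean as a horizontal line and the SD as the error bar; the digits mark AG replicate 6, MG replicate 4 and GC replicate 1. In RPKM the highest Col1a1 library was GC replicate 1, at 2.005, and MG replicate 4 was at 0.918.

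A pair of libraries stood apart for these genes on the TMM scale. The summed level of the 4 mRNAs was 1428 TMM-normalised CPM in MG replicate 4 and 1031 in AG replicate 6, and lay between 83.4 and 382 in the other 15 libraries. MG replicate 4 alone held 19.2% of all Col1a1 reads, 29.9% of Col1a2 reads, 24.1% of Col3a1 reads and 17.2% of Sparc reads. The place of these libraries depended on the scaling. As a share of the total count, the sum was 1583 CPM without TMM factors in MG replicate 4 and 499 in AG replicate 6, where GC replicate 1 reached 532. The TMM factor of AG replicate 6 was 0.484, the lowest of the 17. The mapped reads implied by the RPKM values were 6.14 times those of GC replicate 1, the lowest library, in MG replicate 4 and 4.30 times in AG replicate 6. The log2 fold changes are therefore also given without both libraries, a choice made after their values were seen.

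On the TMM scale Col1a1 ranged from 38.5 to 410 CPM in AG (median 107) and from 39.5 to 456 in MG (median 81.1). In GC the 5 values were 146, 81.1, 65.0, 172 and 27.8. The mean was 155 ± 135 CPM for AG, 142 ± 157 for MG and 98.3 ± 59.2 for GC (SD over 6, 6 and 5 mice). The groups overlapped through most of their ranges, and the medians of MG and GC were both 81.1.

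Col1a2 ranged from 22.0 to 298 CPM in AG (median 51.3) and from 32.0 to 587 in MG (median 85.8), and the GC values were 76.4, 42.3, 47.3, 85.9 and 27.8. The mean was 89.0 ± 104 CPM for AG, 168 ± 210 for MG and 55.9 ± 24.3 for GC. Of the 6 MG libraries, 3 lay above every GC library and 1 lay above every AG library. The groups overlapped in all comparisons.

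Col3a1 ranged from 10.99 to 248 CPM in AG (median 36.9) and from 13.7 to 270 in MG (median 25.7), and the GC values were 34.7, 74.1, 59.1, 105 and 11.9. Its means were close, at 68.2 ± 90.4, 64.2 ± 101 and 57.0 ± 35.8 CPM in AG, MG and GC, while its median was highest in GC, at 59.1. Sparc ranged from 4.31 to 74.5 CPM in AG (median 29.1) and from 9.14 to 116 in MG (median 23.2), and the GC values were 55.5, 35.3, 0, 19.1 and 15.9. Its means of 36.9 ± 29.9, 42.7 ± 40.7 and 25.2 ± 21.1 CPM lay within 1 SD of each other.

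**Figure D2:**
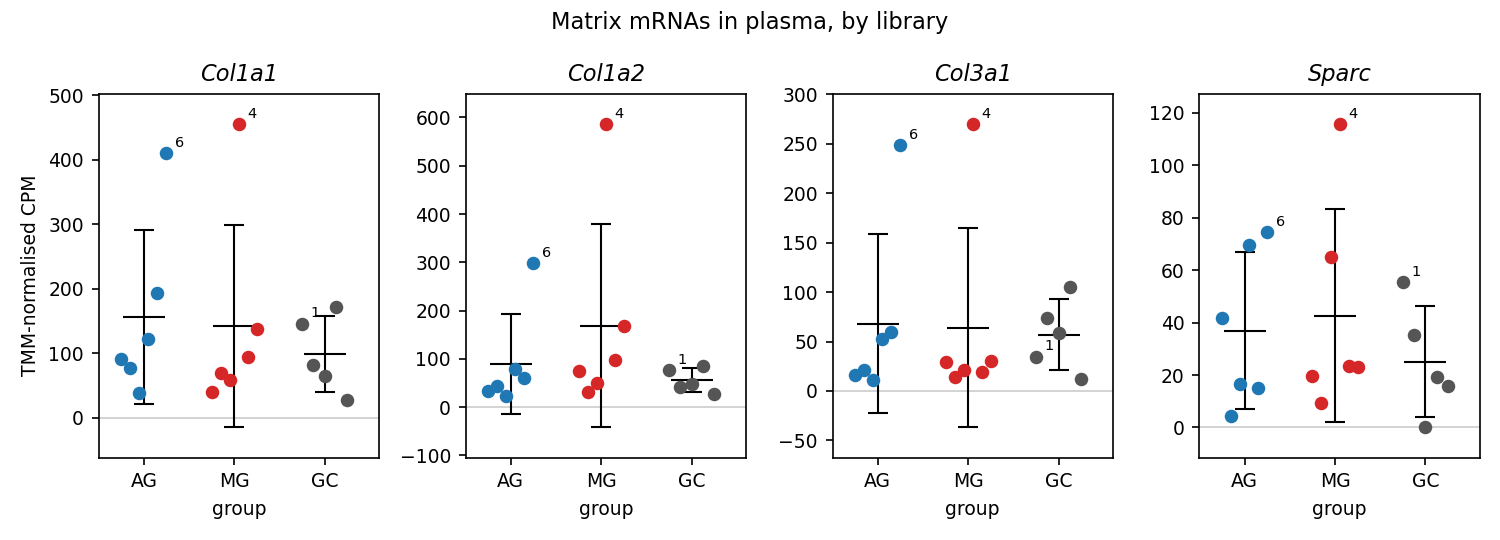
TMM-normalised CPM of each mRNA (y axis, a scale per panel) in the AG, MG and GC libraries (x axis), with 1 point per mouse, the mean as a horizontal line and the SD as the error bar; the digits mark AG replicate 6, MG replicate 4 and GC replicate 1. For the collagens, MG replicate 4 (456, 587 and 270 CPM for Col1a1, Col1a2 and Col3a1) and AG replicate 6 (410, 298 and 248 CPM) were the highest of their groups, where the next AG library was at 193 CPM for Col1a1.

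The effect of microgravity within flight was tested by MG against AG with edgeR's quasi-likelihood test, with p-values adjusted by the Benjamini-Hochberg method over the 6270 genes with at least 5 reads. None of the 4 mRNAs passed the adjusted threshold of 0.05, in a comparison where 0.0797% of all genes did. At an unadjusted p under 0.05 the count was also 0 of the 4, against 12.8% of all genes. Col1a2 had a fitted log2 fold change of 0.96 ± 0.59 (SE, adjusted p = 0.541), with a 95% interval from -0.21 to 2.12. Col1a1 was at -0.11 ± 0.57, Col3a1 at -0.04 ± 0.65 and Sparc at 0.22 ± 0.71, each with an adjusted p of at least 0.978. The median of all genes was 0.21. The value for Col1a2 rested on single libraries and on the scaling. It was -0.05 without MG replicate 4, 1.83 without AG replicate 6 (unadjusted p = 0.00351, adjusted p = 0.354 in edgeR's test) and 1.91 without TMM factors (unadjusted p = 0.00433, adjusted p = 0.140), and 1 of the 4 mRNAs passed the unadjusted threshold under either of the last settings, where 13.8% and 20.8% of all genes did. On log2(RPKM + 1) and log2(RPKM + 0.1) its difference was 0.24 and 0.82 by limma (unadjusted p = 0.0239 and 0.0734, adjusted p = 0.887 and 0.857), where 3.75% and 4.61% of all genes had an unadjusted p under 0.05. Col3a1 was at -1.47 without MG replicate 4 (unadjusted p = 0.0402, adjusted p = 0.376 in edgeR's test, where 12.2% of all genes had an unadjusted p under 0.05) and at 1.04 without AG replicate 6, so its sign turned with 1 library. Without AG replicate 6 and MG replicate 4 together, the log2 fold changes were -0.37 for Col1a1, 0.83 for Col1a2, -0.39 for Col3a1 and -0.08 for Sparc. In plasma, fewer cells that release an mRNA and less mRNA released per cell cannot be told apart.

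Microgravity was then compared with the ground. In MG against GC, 0 of the 4 mRNAs passed the adjusted threshold, where 0.175% of all genes did. Col1a2 had the largest difference of the 4. Its log2 fold change was 1.59 ± 0.64 (SE), a fitted 3.02-fold higher level in MG, with a 95% interval from 0.35 to 2.84, an unadjusted p of 0.0122 and an adjusted p of 0.297 in edgeR's quasi-likelihood test. It was the 1 member with an unadjusted p under 0.05, against 13.6% of all genes, and it ranked 187 of 6270 genes by p. Without MG replicate 4 its log2 fold change fell to 0.60, with an adjusted p of 0.873 in edgeR's test. Without AG replicate 6 as well, the log2 fold changes were -0.28 for Col1a1, 0.61 for Col1a2, -1.26 for Col3a1 and 0.12 for Sparc. On log2(RPKM + 0.1) and log2(RPKM + 1) the difference for Col1a2 was 0.43 and 0.13 by limma (unadjusted p = 0.363 and 0.221). The exact two-sided permutation test of its log2 CPM gave p = 0.210, where the smallest p possible was 0.00433. Col1a1, Col3a1 and Sparc were at 0.54 ± 0.60, 0.15 ± 0.66 and 0.70 ± 0.74, with adjusted p of at least 0.838, and the median of all genes was 0.32.

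Artificial gravity was compared with the ground in AG against GC, where again 0 of the 4 mRNAs passed the adjusted threshold, against 0.175% of all genes, and 0 of the 4 had an unadjusted p under 0.05, against 12.1% of all genes. The log2 fold changes were 0.65 ± 0.61 for Col1a1, 0.64 ± 0.64 for Col1a2, 0.19 ± 0.68 for Col3a1 and 0.48 ± 0.76 for Sparc (SE, edgeR's quasi-likelihood test, adjusted p of at least 0.736). Without AG replicate 6 these became 0.07, -0.24, -0.89 and 0.18, and without MG replicate 4 as well 0.10, -0.22, -0.86 and 0.20. MG against GC and AG against GC share the GC libraries, so their values are not independent of each other. The signs for Col1a1 and Col3a1 in MG against AG, for Col3a1 in MG against GC and for every member in AG against GC turned under another scaling of the counts, and those for Col1a1 and Sparc in MG against GC turned in limma on log2(RPKM + 1), so no direction is given for them. The other tools called few genes of any kind, so that the 0 of 4 members among them carries little. Of 6270 genes, edgeR's exact test called 4 in MG against AG, 9 in MG against GC and 1 in AG against GC, DESeq2 called 3, 0 and 4, limma on log2(RPKM + 0.1) called 0, 1 and 1, and limma on log2(RPKM + 1) and the permutation test called 0 in each. All 12 intervals were wide, spanning from 2.24 to 2.98 on the log2 scale, and 6 of them held both a 2-fold higher and a 2-fold lower level.

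**Figure D3:**
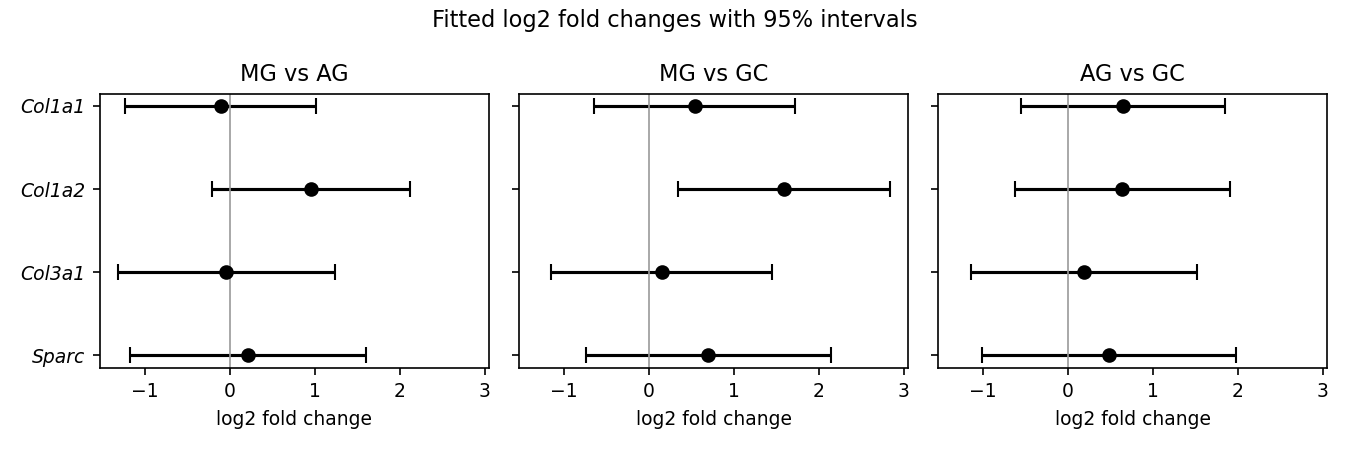
Fitted log2 fold change (x axis) of the 4 mRNAs (y axis) in MG against AG, MG against GC and AG against GC; points are the estimates of edgeR's fit over 17 libraries and bars the 95% intervals. The interval excludes 0 for Col1a2 in MG against GC alone (0.35 to 2.84), before adjustment for the number of genes. The intervals use a spread that was in effect shared by all genes.

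The ratio of the mRNAs within a library does not depend on its scaling. Type I collagen reads are those of Col1a1 and Col1a2 together, and the share of Col1a2 among them was examined after the values had been seen, so it is given with no test. In AG the share was 26.7, 35.7, 36.4, 39.1, 23.5 and 42.1% in replicates 1 to 6. In MG it was 65.2, 31.8, 46.7, 56.3, 51.02 and 55.0%, and in GC it was 34.4, 34.3, 42.1, 33.3 and 50.0%. All but 1 of the MG libraries, replicate 2, lay above every AG library, while 4 of 6 lay above every GC library. This share is 1 of several ratios that the 4 mRNAs allow. How many other gene pairs separate the groups as far was not examined, so the separation is not read as particular to this pair.

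The mean share was 33.9 ± 7.27% for AG, 51.003 ± 11.3% for MG and 38.8 ± 7.18% for GC (SD, n = 6, 6 and 5). Pooling the reads of each group gave 36.4% for AG (55 of 151 reads), 53.5% for MG (152 of 284) and 37.0% for GC (47 of 127). The mean in MG was 49.9% without replicate 4. Leaving out any 1 library gave means of 48.2 to 54.8% for MG, 32.3 to 35.996% for AG and 36.02 to 40.2% for GC. These means reuse the libraries in which the share was chosen. Single shares were imprecise. The exact (Clopper-Pearson) 95% interval was 47.5 to 64.8% in MG replicate 4, with 135 reads of both genes, and 10.9 to 69.2% in AG replicate 3, with 11 reads, and these intervals cover counting error only.

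**Figure D4:**
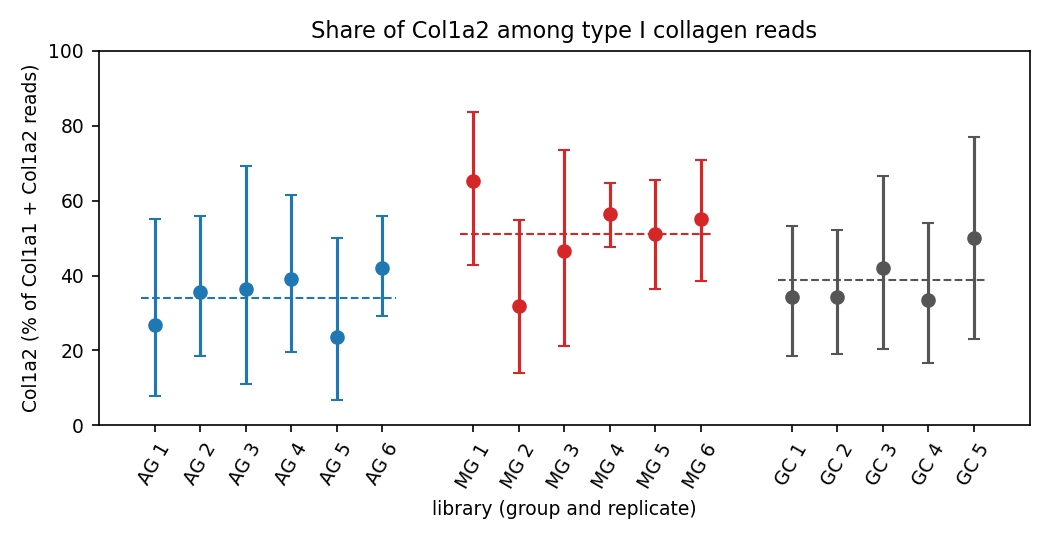
Share of Col1a2 among the reads of Col1a1 and Col1a2 (y axis, percent) in each library (x axis), with exact 95% binomial intervals as bars and the mean of each group as a dashed line. The group means are 33.9% for AG, 51.003% for MG and 38.8% for GC, and 5 of the 6 MG points lie above all AG points. The share was chosen after the values were seen.

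Type III collagen was described in the same way. Col3a1 took 18.002 ± 5.01% of the reads of the 3 collagens in AG, 14.7 ± 5.34% in MG and 26.4 ± 10.5% in GC. The GC libraries were spread widely, from 13.5% to 37.5%. The range was 9.09 to 20.7% in MG and 11.8 to 26.0% in AG. GC replicates 2, 3 and 4 (37.5, 34.5 and 28.9%) lay above both ranges, and replicates 1 and 5 (13.5 and 17.6%) lay within both.

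Rank correlations were higher among the collagen mRNAs than with Sparc, which had 87 reads in all and 0 to 15 a library. This difference was not tested, nor was the part of counting noise in it. Across the 17 libraries, which share their depth and scaling for all genes, Spearman's rho on TMM-normalised CPM was 0.777 between Col1a1 and Col1a2, 0.750 between Col1a1 and Col3a1, and 0.694 between Col1a2 and Col3a1. With Sparc it was between 0.402 and 0.569. On RPKM values all rho were lower, at 0.505 to 0.625 among the collagens and 0.105 to 0.419 with Sparc. Among the 664 genes with at least 51 reads, members included, the non-member most like Col1a1 was Rps25, a ribosomal protein (rho = 0.814), for Col1a2 it was Hsp90b1, a chaperone of the endoplasmic reticulum (0.813), for Col3a1 Dazap2 (0.767) and for Sparc Arhgef12 (0.770), each over 17 libraries.

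The other collagen genes and the genes of collagen synthesis had few reads. Of the 11 fibrillar collagen genes, members included, 9 had any read and 7 had at least 5, and the 3 members held 707 of their 758 reads. The next were Col5a2 with 16 reads and Col5a1 with 12, which encode type V collagen, a component of type I fibrils, while Col11a1 and Col24a1 had none. Of 24 genes that modify, fold, cleave and crosslink procollagen, 21 had a read but 12 had at least 5, for 186 reads in all. P4hb, a subunit of prolyl 4-hydroxylase, had 36 reads, and Serpinh1, the collagen chaperone HSP47, and Plod3, a lysyl hydroxylase, had 16 each. Regulators of collagen transcription had more, with 427 reads over 14 genes. The most read were Ybx1 (237 reads), Tgfb1 (38) and Tgfbr2 (33), which encode a nucleic acid binding protein, transforming growth factor beta and a receptor for it. No gene of these lists passed the adjusted threshold in any comparison. At an unadjusted p under 0.05 the fibrillar list had 0 of 7 genes in MG against AG, 1 (Col1a2) in MG against GC and 1 (Col27a1, at 9 reads) in AG against GC, beside 12.8, 13.6 and 12.1% of all genes. The synthesis list had 2 of 12 in MG against AG, both higher in MG, 2 in MG against GC, both lower in MG, and 0 in AG against GC. The median log2 fold change of the fibrillar list was -0.04, 1.04 and 0.64 in the 3 comparisons, beside 0.21, 0.32 and 0.07 over all genes. The 1.04 is the value of Col2a1, with 11 reads in 5 libraries and an SE of 1.33, and the summed level of the list had a median of 205.8 CPM in MG and 218.7 in GC.

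Bone was checked against its own markers. Of 17 osteoblast and bone matrix genes, 9 had any read and 4 had at least 5, for 72 reads over the 17 libraries. Bglap, which encodes osteocalcin, had 1 read. Bglap2, Sp7 (osterix), Phex, Sost (sclerostin), Mepe and Ifitm5 had 0, Dmp1 and Runx2 had 2 each, and Alpl had 3. Of the genes with more reads, Phospho1, a phosphatase of mineralisation, had 23, Postn (periostin) 21, Spp1 (osteopontin) 9 and Ibsp, bone sialoprotein, 8. The summed level of the list was 8.70 to 50.0 CPM for AG, 0 to 61.8 for MG and 3.97 to 76.4 for GC, and its rank correlation with the summed 4 mRNAs was 0.289 over 17 libraries on the TMM scale and 0.522 on shares of the total count. Of 15 genes of osteoclasts and collagen breakdown, 10 had a read and 3 at least 5, led by Mmp9 (12 reads), Mmp2 (11) and Acp5 (8). The defining markers of bone cells were thus at or near 0 at this depth, and the 4 mRNAs are called matrix mRNAs in what follows, with no tissue of origin.

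Genes of interstitial and basement membrane matrix were read more often, in counts that also grow with gene length. Of 18 fibroblast and interstitial matrix genes 17 had at least 5 reads, led by Thbs1 (767 reads), Fn1 (195) and Dcn (135), which encode thrombospondin 1, fibronectin and decorin. Of these, Thbs1 is also a platelet gene and Fn1 also a liver gene. The list summed to 178 to 1080 CPM for AG, 361 to 1120 for MG and 414 to 695 for GC. All 16 basement membrane genes had a read, led by Hspg2 (58), which encodes perlecan, Col4a1 (45) and Lamb1 (37), and the list summed to 49.4 to 273 CPM for AG, 9.88 to 340 for MG and 41.4 to 187 for GC. None of these genes passed the adjusted threshold in any comparison, where 0.0797, 0.175 and 0.175% of all genes did. At an unadjusted p under 0.05 the interstitial list had 1 gene higher and 1 lower of 17 in MG against AG, 2 higher and 1 lower in MG against GC, and 2 higher and 0 lower in AG against GC. The basement membrane list had 0 higher and 1 lower of 12, then 0 and 1, then 1 and 1, beside 12.8, 13.6 and 12.1% of all genes. Across the 17 libraries the basement membrane list had a rank correlation of 0.811 with the summed matrix mRNAs and the interstitial list 0.598 on the TMM scale, and 0.596 and 0.738 on shares of the total count.

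The libraries that stood apart did so for several of these lists. MG replicate 4 was the highest and AG replicate 6 the next of the 17 libraries for the summed interstitial list (1120 and 1080 CPM), the basement membrane list (340 and 273 CPM) and the list of collagen breakdown (92.6 and 62.1 CPM). For leukocyte genes AG replicate 6 was the highest (323 CPM) and MG replicate 4 the next (293 CPM), and for collagen synthesis genes AG replicate 6 was the highest (199 CPM) and MG replicate 4 the third (100.4 CPM). As shares of the total count, MG replicate 4 was still the highest for the interstitial, basement membrane and breakdown lists and number 5 for leukocyte and for collagen synthesis genes, while AG replicate 6 was number 10, 5 and 6 of the 17 for the first 3 lists, 10 for leukocyte genes and 6 for collagen synthesis genes. MG replicate 4 was also the highest for smooth muscle genes, at 185 CPM, where the next lay at 64.01 (205 and 121 CPM without TMM factors), and 12 of the 20 reads of Myh11, the smooth muscle myosin, were in it. Cnn1, a smooth muscle marker, had 0 reads. For collagen regulators MG replicate 4 was the highest (355 CPM, and 393 CPM without TMM factors). For the osteoblast and bone matrix list, MG replicate 4 was number 2 on the TMM scale (61.8 CPM, 8 reads). Without TMM factors it was the highest for that list (68.4 CPM). AG replicate 6 was number 3 for regulators and 6 for the bone list, and 13 and 12 without TMM factors. For liver genes MG replicate 6 was the highest (3977 CPM) and AG replicate 6 the next (2955 CPM), with MG replicate 4 at 425 CPM and the GC libraries at 82.7 to 200 CPM. Alb, which encodes albumin, was the 1 gene in all the lists that passed the adjusted threshold, and each call rested on 1 library. In MG against GC its log2 fold change was 4.27 (adjusted p = 1.27e-06), and 2.01 without MG replicate 6 (adjusted p = 0.348). In AG against GC it was 3.44 (adjusted p = 0.00177), and -0.01 without AG replicate 6 (adjusted p = 1, all by edgeR's test). Alb was at 1440 CPM in AG replicate 6 and at 0 to 44.6 in the other 5 AG libraries, against 6.94 to 31.8 in GC. The platelet list, with 7907 reads from 14 of 14 genes, had a rank correlation with the summed matrix mRNAs of -0.620 on the TMM scale and of 0.321 on shares of the total count, so its sign depended on the scaling. On the TMM scale AG replicate 6 was at 832 CPM and AG replicate 5, the lowest of the 17, at 312 CPM, where the group median was 2369. On the TMM scale the rank correlation was -0.185 for collagen breakdown (0.356 on shares of the total count) and 0.635 for liver genes (0.623). Red cell genes, with 28757 reads, had 0.216, leukocyte genes 0.370, endothelial genes 0.174, skeletal muscle genes 0.103, adipocyte genes 0.278, smooth muscle genes 0.439, collagen synthesis genes 0.382 and collagen regulators 0.522, and on shares of the total count these 8 lists had 0.288 to 0.659. The part of these cell types in the levels of the matrix mRNAs was not tested.

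**Figure D5:**
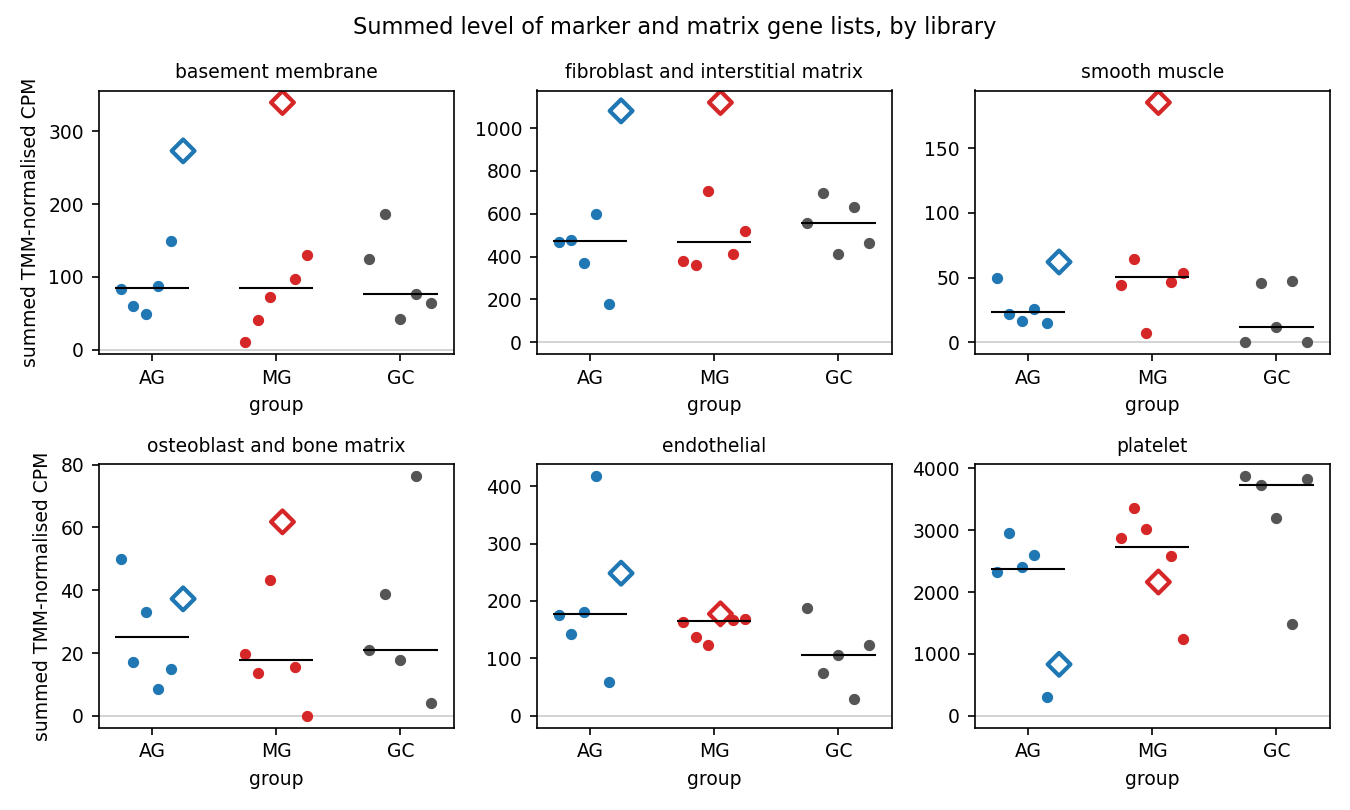
Summed TMM-normalised CPM (y axis, a scale per panel) of 6 gene lists in the AG, MG and GC libraries (x axis), with 1 point per mouse and the median as a line; open diamonds are AG replicate 6 and MG replicate 4. The diamonds are the top 2 of 17 libraries for basement membrane and interstitial genes on this scale. For platelet genes AG replicate 6 lies at 832 CPM, and AG replicate 5 is lower still, at 312 CPM.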

How the data were processed

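Plasma cfRNA of 17 mice was sequenced by the authors with a small RNA library kit as paired reads of 36 bases, which were mapped to mm10 and assigned to 49585 genes in CLC Genomics Workbench. The strand setting, trimming and treatment of reads with several matches are not given in the sources used here. The deposited counts were taken as raw reads per gene. However, 579 genes with a count of 0 in every library had an RPKM above 0 in at least 1. The deposited RPKM values were scaled by the authors' software to gene length and mapped reads. The relative gene lengths implied by them were near those of all annotated exons of GENCODE M21. The deposited TPM values were not used for any result. Depth is the total count per library (84657 to 277682), and counts this low make a single read matter.

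Groups were taken from the sample titles. The members and all gene lists were chosen with earlier results of these data known. Counts were fitted in R 4.3.3 with edgeR 4.0.16 (quasi-likelihood F-test, 17 libraries in one fit, no covariate, TMM factors from the 272 genes kept by filterByExpr) over 6270 genes with at least 5 reads, with Benjamini-Hochberg adjustment. The biological coefficient of variation was 0.999, and the estimate of spread was in effect shared by all genes. Intervals are 95%. Alternatives used DESeq2 1.42.0, limma 3.58.1 on log2 RPKM with a pseudocount of 1 or 0.1, and exact two-sided permutation tests on log2 CPM with a pseudocount of 5. The scripts were tested on simulated data. Named genes are the 4 members, the 3 genes with the highest mean CPM of each list, and any list gene past the threshold; other genes with few or no reads, and Col5a2, Col5a1 and Col27a1, were named after their counts were seen. Itgam, on the leukocyte list, is not analysed here. No pair of libraries in a group agreed within sampling noise (chi-square per degree of freedom at least 5.46). Shares used Python 3.11.15 and scipy 1.17.1.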

Additional observations from a re-analysis of the deposited data

Results flagged for a closer look

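27 groups of values were examined, the 4 mRNAs in TMM-normalised CPM and RPKM and the Col1a2 share, each in AG, MG and GC. Of these, 6 held a library whose gap to its nearest neighbour was over Dixon's 95% critical value. For normally distributed values chance gives about 1 in 20, or 1.35 of 27. These values come from low counts and were not transformed, and each flagged value was the highest of its group. The 6 therefore do not measure an excess over 1.35. In MG replicate 4 the level was 456 CPM for Col1a1 (next 137), 587 CPM for Col1a2 (next 168) and 270 CPM for Col3a1 (next 30.5). In AG replicate 6 it was 298 CPM for Col1a2 (next 78.3) and 248 CPM for Col3a1 (next 59.5). In RPKM, GC replicate 1 was at 0.568 for Col1a2 (next 0.258), and neither of the other libraries stood apart for any of the 4 mRNAs. The 6 values come from 3 libraries and correlated genes, so they are not independent.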

How the results depend on the processing

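None of the 366 values of the 12 member comparisons under the alternatives passed the adjusted threshold, the lowest adjusted p being 0.140 (Col1a2, MG against AG, without TMM factors), and 65 changed sign. In the lists that follow, comparisons are in the order MG against AG, MG against GC and AG against GC.

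The genes called over all genes were 5, 11 and 11. They were 0, 0 and 4 on filterByExpr genes (36 and 12 at an unadjusted p under 0.05 where 0), 8, 7 and 2 without TMM factors, 3, 0 and 4 by DESeq2 (125 unadjusted where 0), 0, 0 and 0 by limma on log2(RPKM + 1) (235, 342 and 401 unadjusted), 0, 1 and 1 by limma on log2(RPKM + 0.1) (289 unadjusted where 0), and 0, 0 and 0 by exact permutation (149, 159 and 165 unadjusted). In AG against GC they were 7 with every gene of at least 1 read, 0 with TMM on all genes with at least 5 reads (766 unadjusted), 2 with DESeq2 size factors and 1 by edgeR's exact test. Without AG replicate 6 and MG replicate 4 they were 7 in MG against GC and 7 in AG against GC.

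Log2 fold changes that changed sign without TMM factors were 0.87 for Col1a1 and 0.99 for Col3a1 in MG against AG, and -0.35, -0.40, -0.81 and -0.64 for Col1a1, Col1a2, Col3a1 and Sparc in AG against GC. With TMM on all genes with at least 5 reads they were 0.11 and 0.18 for Col1a1 and Col3a1 in MG against AG, and -0.090 and -0.27 for Col3a1 against GC. With DESeq2 size factors these 4 were 0.015, 0.062, -0.14 and -0.20, and by DESeq2 0.016, 0.062, -0.14 and -0.20. On log2(RPKM + 1) they were 0.048 and 0.021 for Col1a1 and Col3a1 in MG against AG, -0.10, -0.15 and -0.071 for Col1a1, Col3a1 and Sparc in MG against GC, and -0.15, -0.11, -0.17 and -0.19 for all 4 in AG against GC. On log2(RPKM + 0.1) they were 0.13 and 0.10, then -0.13 and -0.54 for Col1a1 and Col3a1, then -0.26, -0.39, -0.65 and -0.32. In the permutation test Col3a1 was at -0.37 and -0.20 against GC. Without both libraries Sparc was at -0.076 in MG against AG, Col1a1 at -0.28 and Col3a1 at -1.26 in MG against GC, and Col1a2 at -0.22 and Col3a1 at -0.86 in AG against GC. The cause was not tested.

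Leaving out 1 library in turn gave, in the 3 comparisons, -0.94 to 0.47, -0.29 to 0.81 and 0.074 to 0.91 for Col1a1, -0.046 to 1.83, 0.60 to 1.81 and -0.24 to 0.86 for Col1a2, -1.47 to 1.04, -1.27 to 0.45 and -0.89 to 0.49 for Col3a1, -0.38 to 0.53, 0.12 to 1.17 and 0.15 to 0.95 for Sparc, and 0 to 8, 6 to 13 and 3 to 12 genes called. The 0 was without MG replicate 4, with 722 genes at an unadjusted p under 0.05, the 6 without MG replicate 6 and the 3 without GC replicate 2. Of the 12 comparisons, Col1a2 in MG against GC kept its sign under every alternative and every library left out, but its size fell from 1.59 to 0.43 on log2(RPKM + 0.1) and 0.13 on log2(RPKM + 1).

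Replicate numbers are shared between groups, but same-numbered libraries did not deviate together in every pair (correlations of -0.449 to 0.571), so the numbers were not taken as pairs. With the replicate number as a block, 2, 1 and 3 genes were called, Col1a2 and Col3a1 were at 0.76 (unadjusted p = 0.214) and -0.64 in MG against GC, and Col1a2, Col3a1 and Sparc were at -0.081, -0.57 and -0.0041 in AG against GC.

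All 12 intervals held a 2-fold difference in at least 1 direction, at 87 to 308 reads per mRNA. The biological coefficient of variation of 0.999 between mice was estimated over all genes fitted, not for these mRNAs alone. The parts of depth and of spread in the width of the intervals were not tested. Levels between libraries also depend on the scaling, since the 4 dominant genes, the TMM factors and the mapped reads behind RPKM place the same libraries differently.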
